A study of Mus musculus with 6 samples.

Results

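Fn1, Vcan, Tnc, Thbs1, Thbs2, Postn, Sparc, Lum, Dcn and Bgn encode fibronectin, the matricellular proteins and the interstitial proteoglycans of the liver matrix. The 10 genes were taken by symbol from a list, out of 16426 gene rows in the table deposited by the authors. That list was chosen with earlier results of these data known. All 10 were among the 14114 genes over which the deposited p-values were adjusted, called the tested genes below. The remaining 2312 rows have a p-value but an adjusted p of exactly 1, and were left out of that adjustment. The labels describe 6 samples of liver RNA from male C57/BL mice, 3 of them of a normal group given saline. The other 3 are of a group exposed to 20% carbon tetrachloride (CCl4), a solvent that is toxic to hepatocytes, for 10 weeks to produce fibrosis. Whether each sample is a separate mouse is not stated. The design also describes mice given CCl4 (ip) and, for 6 weeks, the flavonoid didymin (ig). None of the 6 labelled samples is of that group. The design asks which liver transcripts differ in fibrosis.

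The deposited table compares a set of 3 libraries named ly_A with another set of 3 named ly_B, and no label of a sample carries either name. Neither set can therefore be tied to normal or CCl4-exposed liver, and every difference below is a difference between the sets with no stated treatment. The other 18 columns, those of single libraries among them, were not used. This was a choice, made because no sample label names a library column. For each gene, the log2 fold change of ly_A over ly_B and the adjusted p are given as they stand in the authors' deposited table, and a negative value is read as higher in ly_B, from the order in the comparison's name. That reading was not tested against the library columns, and every direction below rests on it. Values per library, their spread and the depth behind each gene are not given. Genes count as called where that adjusted p is under 0.05. In bulk RNA, fewer cells of a type and less RNA per cell cannot be told apart. All 8 hepatocyte markers examined, including Alb, were tested genes, and their levels were not used.

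The interstitial matrix lies between cells and holds fibrillar collagens, and in liver most of it is made by stellate cells, portal fibroblasts and other mesenchymal cells. Matricellular proteins are secreted into it and tune how cells attach, migrate and respond to growth factors more than they bear load. Versican is a large proteoglycan that binds hyaluronan. Lumican, decorin and biglycan are small leucine-rich proteoglycans that bind collagen fibrils and growth factors. Fibronectin forms fibrils through integrins and is also a plasma protein made by hepatocytes.

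Promoter sequences are shown for the called genes that the RefSeq promoter table (GRCm38.p6, another build than the mm9 of the processing notes) holds. That table matched 6 of the 10 genes, Vcan, Tnc, Postn, Bgn, Sparc and Thbs2, with 8 windows in all. Each window runs from 250 bases before to 50 bases after an annotated transcription start, 5' to 3' on the gene's strand. The windows below are Vcan at chr13:89742463-89742762 (minus strand), Tnc at chr4:64046966-64047265 (minus strand), Postn at chr3:54360857-54361156 (plus strand) and Bgn at chrX:73483351-73483650 (plus strand). For Tnc and Postn, which have 2 windows each, the window shown is the first along the gene whose last 30 bases occur in a GENCODE M21 transcript. Vcan and Tnc were both called higher in ly_B, and Postn and Bgn both higher in ly_A. Capitals mark the motifs searched.
Vcan: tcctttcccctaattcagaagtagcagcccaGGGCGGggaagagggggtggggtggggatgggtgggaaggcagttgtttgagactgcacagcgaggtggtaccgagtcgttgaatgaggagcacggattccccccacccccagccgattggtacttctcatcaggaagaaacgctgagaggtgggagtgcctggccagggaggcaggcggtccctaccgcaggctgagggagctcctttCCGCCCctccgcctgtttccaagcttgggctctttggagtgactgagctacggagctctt
Tnc: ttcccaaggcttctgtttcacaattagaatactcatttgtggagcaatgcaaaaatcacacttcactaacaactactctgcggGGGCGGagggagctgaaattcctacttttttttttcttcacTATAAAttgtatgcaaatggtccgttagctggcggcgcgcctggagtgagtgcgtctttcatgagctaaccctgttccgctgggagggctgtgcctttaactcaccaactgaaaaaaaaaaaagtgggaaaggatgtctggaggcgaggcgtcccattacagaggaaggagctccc
Postn: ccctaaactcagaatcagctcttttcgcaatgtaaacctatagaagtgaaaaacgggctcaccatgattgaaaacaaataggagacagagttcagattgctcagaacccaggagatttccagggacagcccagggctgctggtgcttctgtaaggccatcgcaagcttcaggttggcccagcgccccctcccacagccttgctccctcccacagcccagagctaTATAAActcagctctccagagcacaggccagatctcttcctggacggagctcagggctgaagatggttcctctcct
Bgn: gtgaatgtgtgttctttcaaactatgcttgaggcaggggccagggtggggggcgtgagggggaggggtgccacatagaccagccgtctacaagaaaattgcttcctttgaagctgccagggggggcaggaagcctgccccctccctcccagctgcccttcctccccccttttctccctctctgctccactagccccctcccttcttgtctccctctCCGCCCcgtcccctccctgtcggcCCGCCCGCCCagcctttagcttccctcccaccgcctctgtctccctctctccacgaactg

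The motifs searched on both strands were the TATA box (TATAAA), the GC box (GGGCGG), the AP-1 site (TGANTCA) and the TEAD site (GGAATG). The TATA box letters stood in 4 of the 8 windows of these genes, against 13.6% of all 32851 windows of the same length. In the Postn window shown, TATAAA began 26 bases before the start. The GC box letters stood in 4 of the 8 windows, against 35.7% of all windows. The Bgn window held 3 of them, where adjacent copies overlap, the Vcan window 2 and the Tnc window 1. The AP-1 and TEAD letters stood in 0 of the 8 windows, against 7.81% and 14.7% of all windows. Both Tnc windows overlap each other and hold the same matches. GC content of the windows shown was 61.0% for Vcan, 47.3% for Tnc, 53.0% for Postn and 63.7% for Bgn, around a median of 52.7% over all windows. The GC box letters were thus found for genes called in either direction, in windows of Vcan and Tnc and in that of Bgn.

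Of the 10 genes, 5 were higher in ly_B (Vcan, Thbs1, Tnc, Fn1 and Lum), 2 were higher in ly_A (Postn and Bgn) and 3 did not pass (Thbs2, Sparc and Dcn) by the authors' deposited table. In the same table, 35.8% of all tested genes were called, 18.1% higher in ly_A and 17.7% higher in ly_B. The median log2 fold change of the 10 genes was -0.39, beside 0.07 for all tested genes, with single values from -3.06 to 1.10 by the authors' deposited table. The matricellular genes were called in both directions, as were the small leucine-rich proteoglycans.

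**Figure D1:**
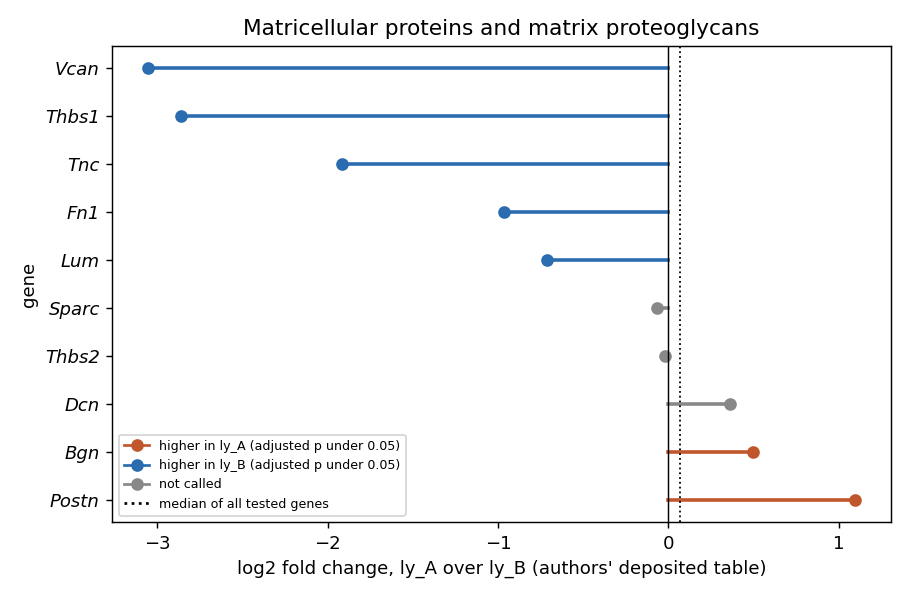
Log2 fold change of ly_A over ly_B for each of the 10 genes (horizontal axis, the authors' deposited values), ordered by value. Vcan at -3.06 and Postn at 1.10 are the ends of the range, Thbs2 and Sparc lie beside 0, and the dotted line is the median of all tested genes, 0.07.

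Vcan, the hyaluronan-binding proteoglycan of provisional matrix, had the largest difference of the 10. It was 8.32-fold higher in ly_B by the authors' deposited table (log2 -3.06, adjusted p = 0.000541). Only 0.978% of tested genes had a lower log2 value. It stood at rank 454 of 14114 by the size of the difference and at rank 2089 by p-value.

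Thbs1 encodes thrombospondin-1, a matricellular glycoprotein that can activate latent TGF-beta and restrains blood vessel growth. It was 7.25-fold higher in ly_B by the authors' deposited table (log2 -2.86, adjusted p = 2.71e-11). That was the smallest adjusted p of the 10 genes, at rank 225 of all tested genes. Thbs2, its closest relative with the same trimeric build, had a log2 value of -0.02 by the authors' deposited table (adjusted p = 0.97). The difference between this pair was not tested. The pentameric thrombospondins had positive values. Comp, best known from cartilage, was higher in ly_A at 3.88 by the authors' deposited table (adjusted p = 0.0371). Thbs3 at 1.58 and Thbs4 at 2.54 did not pass by the authors' deposited table (adjusted p = 0.0864 and 0.133).

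Tnc, or tenascin-C, is a hexameric glycoprotein made at sites of repair and scarce in most adult tissues. It was 3.77-fold higher in ly_B by the authors' deposited table (log2 -1.92, adjusted p = 0.000157). Its relative Tnxb, tenascin-X of mature connective tissue, was called in the opposite direction, 3.43-fold higher in ly_A by the authors' deposited table (log2 1.78, adjusted p = 9.35e-07). Both remaining tenascins, Tnr and Tnn, were left out of the adjustment (unadjusted p = 0.495 and 0.929).

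Postn, or periostin, is a matricellular protein that links collagen, fibronectin and tenascin-C. It was 2.14-fold higher in ly_A by the authors' deposited table (log2 1.10, adjusted p = 0.000335). Postn was thus the member with the largest value towards ly_A, above 84.3% of tested genes. Tgfbi, the other protein of the periostin family, stood at -0.42 and did not pass by the authors' deposited table (adjusted p = 0.147).

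Sparc, also called osteonectin, is a collagen-binding matricellular protein of mesenchymal cells. Its log2 value was -0.07 by the authors' deposited table (adjusted p = 0.876). No tested relative passed either: Sparcl1 stood at 0.04, Smoc1 at 0.11, Smoc2 at 0.28 and Spock2 at 0.30 by the authors' deposited table (smallest adjusted p = 0.547). A p above the threshold does not show that levels were equal, and no interval is given for these genes.

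Fn1, fibronectin, was 1.95-fold higher in ly_B by the authors' deposited table (log2 -0.96, adjusted p = 1.11e-05). It had the second smallest adjusted p of the 10 with a difference just under 2-fold, at rank 1102 by p and 4109 by size among tested genes. Of the integrin chains that bind fibronectin, Itgav was higher in ly_B at -1.40 and Itgb1 at -0.99 by the authors' deposited table (adjusted p = 4.32e-09 and 2.03e-05). Itga4, of the leukocyte integrin that binds fibronectin, was higher in ly_A at 1.03 by the authors' deposited table (adjusted p = 0.00533). Itga5, the partner of Itgb1 in the classical fibronectin receptor, stood at 0.18 and did not pass by the authors' deposited table (adjusted p = 0.596).

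**Figure D2:**
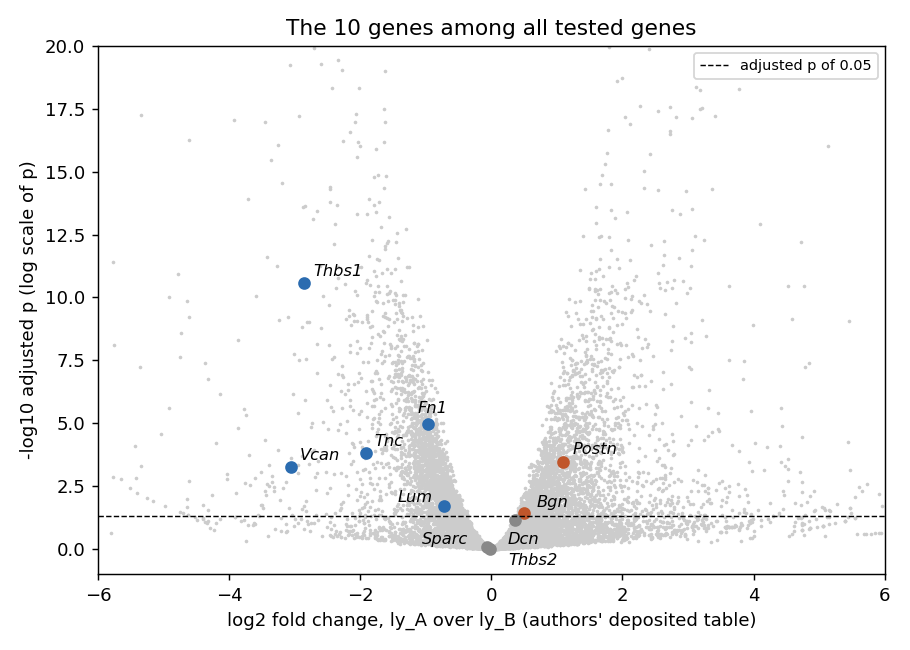
The 10 genes among all tested genes, with log2 fold change of ly_A over ly_B on the horizontal axis and -log10 of the adjusted p on the vertical axis (authors' deposited values). Grey points are tested genes, of which 102 lie outside the axes; Thbs1 stands highest of the 10, and Vcan lies farther left but lower.

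The small leucine-rich proteoglycans had the smallest called differences of the 10. Lum, which binds fibrillar collagen and carries keratan sulfate, was 1.64-fold higher in ly_B by the authors' deposited table (log2 -0.71, adjusted p = 0.0188). Bgn, biglycan, a proteoglycan that also signals through Toll-like receptors, was 1.41-fold higher in ly_A by the authors' deposited table (log2 0.50, adjusted p = 0.0358). Dcn, decorin, a proteoglycan that binds TGF-beta and collagen, stood at 0.36 and did not pass by the authors' deposited table (adjusted p = 0.074). Bgn and Dcn thus lay on either side of the threshold with log2 values that differed little, and the difference between them was not tested.

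A stricter rule took away the smaller differences. At an adjusted p under 0.01, Lum and Bgn were no longer called and 5 of the 10 genes were, beside 25.0% of tested genes. With a 2-fold difference required as well as an adjusted p under 0.05, Vcan, Thbs1, Tnc and Postn remained, 4 of 10, beside 18.8% of tested genes. With p adjusted over all 16426 rows of the table, the same 7 genes were called, beside 29.6% of the rows.

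Gene lists around the 10 genes were drawn up by role, and members of these lists were called in both directions. Of 170 tested genes on the 7 lists, 35 were higher in ly_A and 41 higher in ly_B by the authors' deposited table, together 44.7%, beside 35.8% of all tested genes, with a median log2 value of -0.11 beside 0.07. Other small leucine-rich proteoglycans had 7 of 12 tested genes higher in ly_A and 1 higher in ly_B by the authors' deposited table, with a median of 1.35. Podnl1 was higher in ly_A at 4.46 and Aspn, asporin, a close relative of decorin, at 3.04, while Nyx, known from the retina, was higher in ly_B at -3.50 by the authors' deposited table (largest adjusted p = 0.0177). Fmod, fibromodulin, the nearest collagen-binding relative of lumican, was higher in ly_A at 1.28 by the authors' deposited table (adjusted p = 0.0291). Lum was thus called towards ly_B, and 7 of the 8 called genes of the list towards ly_A. At an adjusted p under 0.01 the list kept 5 called genes of 12 tested, beside 25.0% of all tested genes.

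Among other matricellular proteins, 7 of 24 tested genes were higher in ly_A and 3 higher in ly_B by the authors' deposited table, with a median of 0.35. These were 29.2% and 12.5% of the list, beside 18.1% and 17.7% of all tested genes. Among called genes of the list, the largest differences were those of Comp (3.88), of Nov, a CCN family member, at 2.99, and of Wisp1, another CCN protein, at -2.12 by the authors' deposited table (largest adjusted p = 0.0371). All 3 genes higher in ly_B were CCN proteins, Wisp1, Cyr61 at -1.70 and Ctgf at -0.81 by the authors' deposited table (largest adjusted p = 0.0087). Nov was the CCN member called towards ly_A. Spp1, osteopontin, stood at -0.27 and did not pass by the authors' deposited table (adjusted p = 0.48).

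Versican binds hyaluronan and is anchored by link proteins. Of 22 tested genes of hyaluronan and its binding proteins, 4 were higher in ly_A and 5 higher in ly_B by the authors' deposited table. That was near the share of all genes, with a median of -0.09. No lectican was among these tested genes, and Ncan, a lectican related to versican, was left out of the adjustment (unadjusted p = 0.884). Tnfaip6, TSG-6, which transfers heavy chains to hyaluronan, was higher in ly_B at -3.05 by the authors' deposited table (adjusted p = 0.000725). The link protein gene Hapln4 was higher in ly_B at -1.62 by the authors' deposited table (adjusted p = 3.13e-05). Hapln1, another link protein gene, stood at -0.03 and did not pass by the authors' deposited table (adjusted p = 0.99). The link protein genes Hapln2 and Hapln3 were left out of the adjustment. Stab2, the hyaluronan clearance receptor of sinusoidal endothelium, was higher in ly_A at 1.77 by the authors' deposited table (adjusted p = 2.18e-17). The synthase gene Has1 at -3.21 and the receptor gene Cd44 at -0.61 did not pass by the authors' deposited table (adjusted p = 0.0579 and 0.113).

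Enzymes that build the chondroitin and dermatan sulfate chains of versican, decorin and biglycan were called in both directions. Of 27 tested, 5 were higher in ly_A (18.5%) and 7 higher in ly_B (25.9%) by the authors' deposited table, beside 18.1% and 17.7% of all tested genes, with a median of -0.13. With a 2-fold difference required, 7 of the 12 called genes were left, 7 of 27 tested, beside 18.8% of all tested genes. Chsy3, which lengthens the chain, stood at -2.27, the sulfotransferase Chst11 at -2.21 and Ugdh, which makes the precursor UDP-glucuronate, at -2.11 by the authors' deposited table (largest adjusted p = 0.0013). These 3 largest differences of the list all lay towards ly_B.

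Of 34 receptors and cell surface partners, 4 were higher in ly_A and 10 higher in ly_B by the authors' deposited table, with a median of -0.22. These were 11.8% and 29.4% of the list, beside 18.1% and 17.7% of all tested genes. Anxa2, annexin A2, a cell surface binding partner of tenascin-C, stood at -2.70, the glypican Gpc3 at -1.97 and the laminin-binding integrin chain Itga6 at -1.48 by the authors' deposited table (largest adjusted p = 0.0378). With a 2-fold difference required, 7 of the 14 called genes of this list were left. That was 7 of 34 tested, near the 18.8% of all tested genes called by that rule.

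Proteases that cleave these proteins, with the inhibitors that act on them, had 3 of 28 tested genes higher in ly_A and 10 higher in ly_B by the authors' deposited table, with a median of -0.44. These were 10.7% and 35.7% of the list, beside 18.1% and 17.7% of all tested genes. Mmp12 stood at -6.31, Timp1, an inhibitor, at -4.64 and Mmp13 at -3.45 by the authors' deposited table (largest adjusted p = 4.57e-05). Versican-cleaving proteases Adamts4 and Adamts1 were higher in ly_B at -2.52 and -1.31 by the authors' deposited table (adjusted p = 0.000897 and 0.000603). Adamts5 and Adamts9, which also cut versican, stood at -0.04 and 0.07 and did not pass by the authors' deposited table (adjusted p = 0.96 and 0.92). Timp3, the TIMP bound to matrix and the main inhibitor of these ADAMTS proteases, was higher in ly_A at 1.14 by the authors' deposited table (adjusted p = 0.000201).

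Proteins that assemble, process or crosslink the matrix had 6 of 24 tested genes higher in ly_A and 5 higher in ly_B by the authors' deposited table, with a median of -0.39. These were 25.0% and 20.8% of the list, near the 18.1% and 17.7% of all tested genes. Tgm1 and F13a1, both transglutaminases, were higher in ly_B at -3.31 and -2.04, and Vwf, an endothelial and platelet adhesion protein, was higher in ly_A at 1.89 by the authors' deposited table (largest adjusted p = 0.0115). Tgm2, the tissue transglutaminase that crosslinks fibronectin, was higher in ly_B at -1.27 by the authors' deposited table (adjusted p = 4.6e-05).

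**Figure D3:**
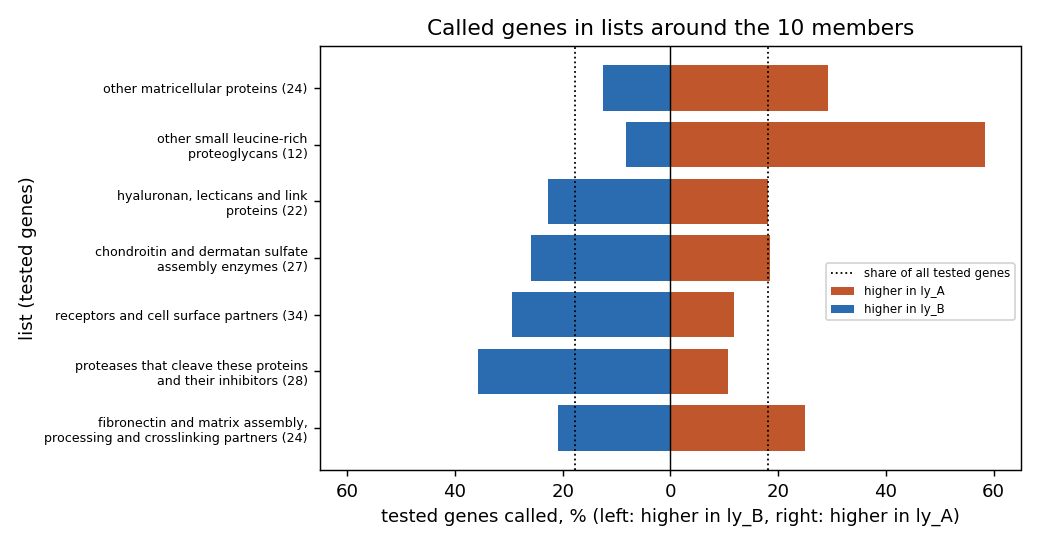
Share of the tested genes of each list that were called higher in ly_A (right) or higher in ly_B (left), in percent, with the number tested in brackets and dotted lines at the shares of all tested genes, 18.1% and 17.7%. Other small leucine-rich proteoglycans reach 58.3% on the right, and proteases with their inhibitors 35.7% on the left.

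Counts of called markers are given by cell type, beside 35.8% of all tested genes called, 18.1% higher in ly_A and 17.7% higher in ly_B; none of the lists was tested against other genes. Of 10 markers of activated stellate cells, 2 were higher in ly_A and 1 higher in ly_B, and of 9 tested stellate cell markers 1 was called in each direction, by the authors' deposited table. Mesothelial markers had 4 of 9 higher in ly_B, recruited macrophage markers 3 of 8 and cholangiocyte markers 1 of 7, with 0 higher in ly_A for each by the authors' deposited table. Sinusoidal endothelial markers had 7 of 8 higher in ly_A, Kupffer cell markers 6 of 8, T cell markers 3 of 6, erythroid markers 3 of 5, portal fibroblast and smooth muscle markers 3 of 10, and platelet markers 1 of 3, with 0 higher in ly_B for each by the authors' deposited table. Hepatocyte markers had 3 of 8 higher in ly_A and 1 higher in ly_B by the authors' deposited table, and neutrophil markers 0 of 5 in either direction. Unadjusted, 0 of the 5 neutrophil markers had a p under 0.05 by the authors' deposited table. At an adjusted p under 0.01, 7 sinusoidal endothelial, 5 Kupffer cell, 1 T cell, 1 erythroid, 1 platelet and 0 portal markers stayed called. Mesothelial and recruited macrophage markers kept 3 each and cholangiocyte markers 1. By that rule 25.0% of all tested genes were called. Some markers, portal fibroblast ones among them, also stand on the lists by role. The part of these cell types in the values of the 10 genes was not tested, and summed marker levels were not used.

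Reads of overlapping genes cannot be told apart where counting ignores strand. In GENCODE M21, the spans of Fn1, Vcan, Tnc and Thbs1 overlap annotated genes on the opposite strand, among them Apol7d, Gm4117, 8030451A03Rik and Gm29233, and none of the overlapping genes has a row in the deposited table. Whether reads were counted by strand is not given in the sources used here. Splice forms of Fn1, Tnc and Vcan, which differ in their inserted domains, share a row each.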

How the data were processed

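RNA sequencing of mouse liver is described by the labels for 6 samples, 3 per group. Per the labels' protocols, Trizol served for RNA extraction and a NEBNext kit for the libraries. Per the submitters' processing notes, DESeq2 (no version) and mm9 were used; aligner, counter, annotation: not given in the sources used here. Log2 fold change, p-value and adjusted p-value of each gene were computed by the authors and deposited in 1 table, per the file headers. The log2 values are read as ly_A over ly_B, after the order in the comparison's name. That reading was not tested.

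The other 18 columns, those of single libraries among them, were by choice not used, as no library column matches a sample label. Totals, replicate spread and a test of the counts are therefore not given. The labels number the replicates without saying how each was taken, so the p-values measure the spread between these libraries. Rows with an adjusted p of 1 (2312) were taken as left out of the adjustment: over the other 14114, adjusting the deposited p-values by Benjamini-Hochberg matched the deposited ones to a relative difference of 9.47e-13. Calls were counted with Python 3.11.15 and pandas 2.3.3; the adjustment was tested on simulated data.

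The 10 genes and all lists were chosen with earlier results of these data known. Named are all 10 genes and, of each list, the 3 called genes with the largest difference (where fewer than 2 passed, the 2 with the smallest p). Marker lists are given as counts. Family relatives (thrombospondins, tenascins, Tgfbi, Sparc relatives, Fmod, Ncan and link proteins) were added after their values were seen. So were integrins, Cd44, Has1, Spp1, Cyr61, Ctgf, Adamts and Timp3, and Tgm2. No set test was made. A planned comparison of protein sequences was not run.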

Additional observations from a re-analysis of the deposited data

How the results depend on the processing

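Subtracting the median of all tested genes (0.07) moved the median of the 10 genes from -0.39 to -0.46. No sign among the 10 values turned. The subtraction lowers every value, so it could not turn a negative one. The smallest positive value, that of Dcn, went from 0.36 to 0.29. The number of the 10 genes called was 7 at an adjusted p under 0.05, 5 under 0.01, 7 with p adjusted over all rows, and 4 where a 2-fold difference was also asked for. The last leaves out Fn1, Lum and Bgn by construction, since their differences are under 2-fold. Over the 7 lists, 76 genes were called, 58 at an adjusted p under 0.01, 55 where a 2-fold difference was also asked for and 76 with p adjusted over all rows. No paired analysis was possible because the columns carry no replicate number that can be tied to a labelled sample. The library columns were not used, by choice, so no library was left out in turn and no count test, other normalization or filter was run. Counts of called genes moved by over 1.5 times on 5 lists: at an adjusted p under 0.01, from 8 to 5 small leucine-rich proteoglycans and from 11 to 7 assembly and crosslinking partners, and with the 2-fold difference, from 9 to 5 hyaluronan genes, from 12 to 7 chain-building enzymes and from 14 to 7 receptors. Calls over all tested genes fell as well, from 5053 to 3526 at an adjusted p under 0.01 and to 2650 with the 2-fold difference. The moves of the lists are therefore not particular to them. Depth per gene was not examined, which limits the reading of large fitted values such as that of Podnl1.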
